A study of Mus musculus with 9 samples.

Results

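The G1 cyclins and their kinases are the proteins that carry a cell through the first gap phase of the cell cycle and into DNA replication, and 8 genes of this group were examined: the D cyclins Ccnd1, Ccnd2 and Ccnd3, the E cyclins Ccne1 and Ccne2, and the kinases Cdk2, Cdk4 and Cdk6. They were taken from the deposited count table by gene symbol, 8 of 15824 genes, and each symbol matched 1 row. Expression was measured by RNA sequencing of ribosomal RNA-depleted total RNA in 9 libraries labelled as isolated cardiomyocytes of CD-1 (ICR) mice, an outbred stock. The 3 ages, with 3 libraries each, were postnatal day 1 (P1, hearts pooled by 12), day 14 (P14, pooled by 6 to 7) and day 56 (P56, pooled by 6 to 7), with no treatment or allele named for any group. The protocols given with the samples describe whole cell isolation on a Percoll gradient or by Langendorff perfusion, in operated mice, and also the sorting of Pcm1-stained nuclei, without saying by which route each RNA library was made. Each age is described as a biological triplicate, and since hearts were pooled the p-values measure the spread between pools.

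D cyclins are made in answer to growth signals and bind Cdk4 or Cdk6, and E cyclins bind Cdk2; these kinases phosphorylate the retinoblastoma family of pocket proteins, which releases E2F transcription factors that switch on the genes of DNA replication. Inhibitors of the Cip/Kip and INK4 families hold the kinases in check. Mouse cardiomyocytes divide before birth, most leave the cell cycle in the first weeks after birth, and many go through a last round of DNA replication without cell division, which leaves them with more than 1 nucleus.

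All 8 genes had lower transcript levels at P56 than at P1, with no overlap between the libraries of these ages, beside 37.1% of all genes tested. For 7 of them the fall passed the test, beside 31.7% of all genes, and Ccnd1 was the exception. The 8 genes took different courses. Cdk2, Cdk4, Cdk6 and Ccnd2 fell in both intervals, P14 against P1 and P56 against P14. Ccne1 fell 8.18-fold at P14 and stood 3.24-fold higher at P56 than at P14. Ccnd1 libraries at P14 lay on both sides of those at P1. Levels are given in CPM, the count of a gene scaled to its library's total as corrected by TMM, and changes as log2 values ± standard error (SE). The quasi-likelihood test of edgeR was used, its p-values were adjusted over 15817 genes by Benjamini and Hochberg's method, and 0.05 was the threshold. The SE was derived from this test, as the absolute log2 change divided by the square root of the F statistic.

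Promoter sequences are shown for 3 of the genes, with matches to motifs that the Myc family, the E2F factors and Sp1, among other factors, are known to read. RefSeq promoter windows (build GRCm38.p6) were matched for 5 of the 8 genes by symbol, Ccnd3 with 2 starts, and each sequence gives the 250 bases before the annotated start, 5′ to 3′ on the strand of the gene. Capitals mark E-boxes (CACGTG) in the Cdk4 window at chr10:127063285-127063534 on the plus strand, an E2F site (searched as TTTCGCGC, TTTGGCGC, TTTCCCGC or TTTGCCGC) in the Cdk2 window at chr10:128705052-128705301 on the minus strand, and GC boxes (GGGCGG) in the Ccne1 window at chr7:38107491-38107740 on the minus strand.
Cdk4: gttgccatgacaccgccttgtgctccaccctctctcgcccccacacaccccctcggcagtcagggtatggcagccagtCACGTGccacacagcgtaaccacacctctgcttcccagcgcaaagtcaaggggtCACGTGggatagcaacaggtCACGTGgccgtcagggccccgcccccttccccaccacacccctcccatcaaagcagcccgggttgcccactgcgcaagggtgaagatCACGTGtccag
Cdk2: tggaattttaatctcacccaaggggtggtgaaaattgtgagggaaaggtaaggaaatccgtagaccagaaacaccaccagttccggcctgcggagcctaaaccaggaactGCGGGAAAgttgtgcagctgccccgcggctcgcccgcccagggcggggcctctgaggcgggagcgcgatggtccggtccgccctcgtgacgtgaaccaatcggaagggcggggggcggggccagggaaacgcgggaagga
Ccne1: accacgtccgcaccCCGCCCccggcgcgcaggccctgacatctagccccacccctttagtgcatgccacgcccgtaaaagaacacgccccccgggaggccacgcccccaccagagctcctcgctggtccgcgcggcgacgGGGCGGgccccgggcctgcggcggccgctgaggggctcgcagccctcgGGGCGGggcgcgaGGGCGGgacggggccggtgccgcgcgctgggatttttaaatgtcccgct

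Both strands were searched, and no base of these windows lay in matches of more than 1 motif. The Cdk4 window held 4 E-boxes, whose first bases lay 172, 118, 98 and 11 bases before the start. Among 32851 RefSeq promoter windows of the same length, 6.02% held at least 1 E-box and 7 windows (0.0213%) held 4 or more. The Cdk6 window held 1 E-box, 220 bases before the start, and the windows of Ccnd3, Ccne1 and Cdk2 held none. The E2F words had 1 match in the Cdk2 window, 140 bases before the start, and at least 1 match in 1.86% of all windows; the other members' windows had none. The Ccne1 window held 4 GC boxes, against 4.09% of all windows with 4 or more, and the Cdk2 window held 5. CRE half-sites (TGACGT), CHR words (TTTGAA) and CCAAT boxes (CCAAT) were searched too. The Cdk2 window held 1 CRE half-site and 1 CCAAT box, and the Cdk4 and Ccne1 windows held none of these words. Of all windows, 6.47% held at least 1 CRE half-site and 33.8% at least 1 CCAAT box. A match describes the letters of the window and shows neither binding nor its absence.

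Counts per library ran between 49190887 and 58538025 at P1, between 36619799 and 38878181 at P14, and between 45866453 and 49535917 at P56. All 8 cardiomyocyte markers examined, such as Myh6, Ryr2 and Pcm1, were measured, with a summed level of 23600 to 26420 CPM at P1, 23710 to 38370 CPM at P14 and 22210 to 28790 CPM at P56. The sum is mostly Ryr2, which averaged 17420, 19167 and 16176 CPM at these ages. Of the 8, 2 rose at P14 against P1, Myh6 among them (log2 change 1.29), and Pcm1 fell (-0.86), beside 28.4% and 27.5% of all genes tested. Markers of other heart cells were also present, 47 measured of 52 examined; the table holds no gene with a mean count under 10. Summed endothelial markers (12 of 12 measured) gave 76.2 to 108 CPM at P1, 231 to 591 CPM at P14 and 39.5 to 98.9 CPM at P56, and summed fibroblast markers (12 of 12) gave 184 to 374, 233 to 857 and 52.3 to 104 CPM at these ages. Smooth muscle and pericyte markers (8 of 8) summed to 168 to 196, 197 to 296 and 51.9 to 85.2 CPM, leukocyte markers (9 of 12) to 3.41 to 5.17, 7.62 to 22.0 and 7.49 to 14.9 CPM, and epicardial markers (6 of 8) to 40.0 to 43.9, 18.9 to 37.5 and 6.26 to 13.9 CPM. At P1 the epicardial sum was mostly Tbx18 (34.5 CPM, and 9.44 at P14), and the smooth muscle sum mostly Acta2 (96.0 CPM) and Cspg4 (60.9 CPM). Of the 6 epicardial markers, 4 rose and 1 fell at P14 against P1, beside 28.4% and 27.5% of all genes tested. The mean log2 CPM of the 47 markers, called the marker score here, ran at P1 between 1.41 and 2.01, at P14 between 2.46 and 3.71 and at P56 between 0.56 and 1.63, so that P14 libraries had the highest scores. Of the 47 markers, 34 rose and 4 fell at P14 against P1, beside 28.4% and 27.5% of all genes tested. At P56 against P14 none rose and 34 fell, beside 27.5% and 28.5% of all genes. At P56 against P1, 10 rose and 16 fell, beside 30.9% and 31.7% of all genes. In bulk RNA, fewer cells of a type and less transcript per cell cannot be told apart.

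**Figure D1:**
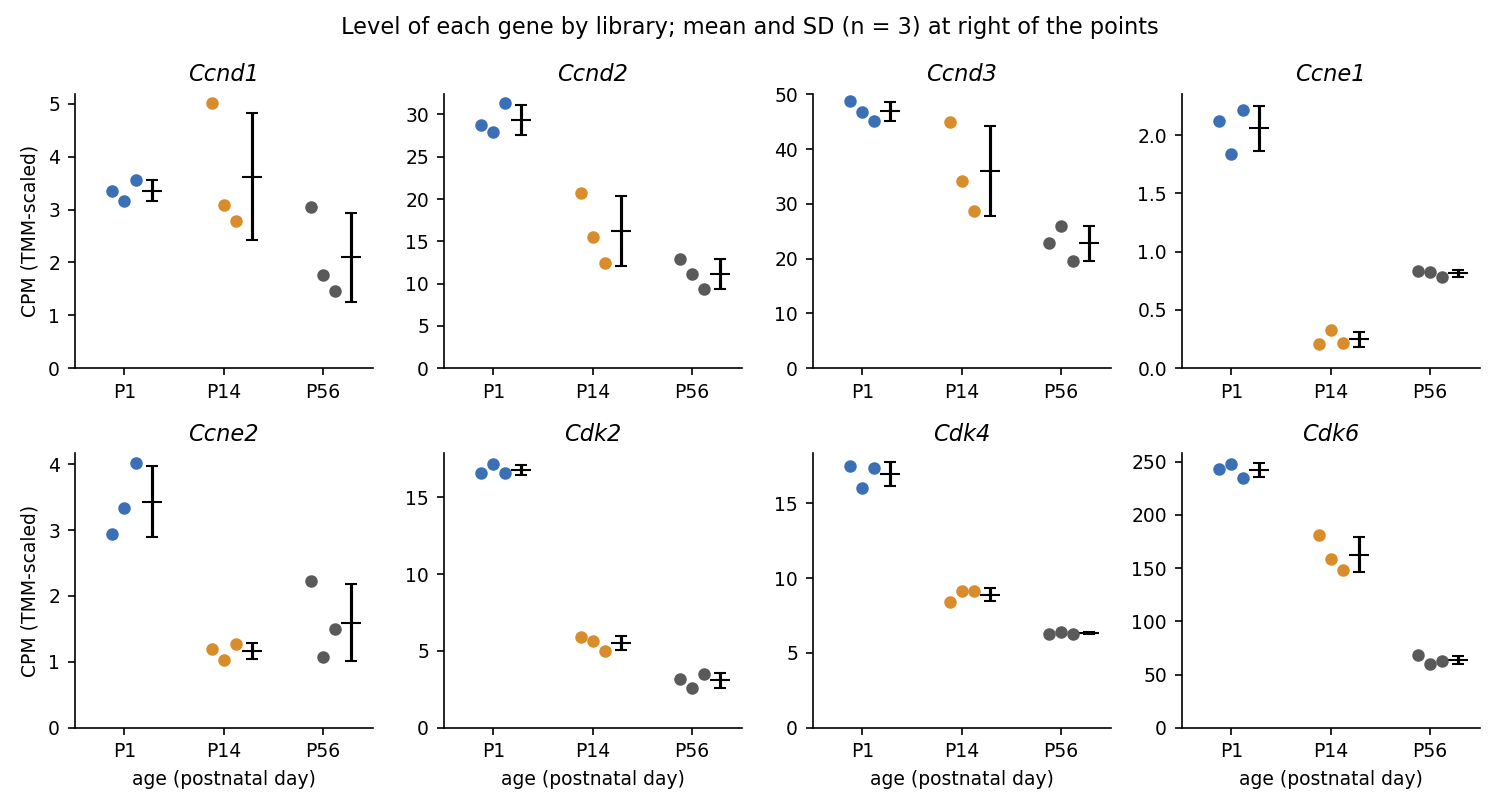
Level of each of the 8 genes in CPM (vertical axes, linear from 0, scaled per gene) in the 3 libraries of each age, with the mean and SD beside the points. Every P56 point lies below every P1 point in all 8 panels, and the P14 points of Ccne1 lie below those of both other ages.

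In the comparison of P14 with P1, which asks what changes over the first 2 weeks after birth, 6 of the 8 members fell, beside 27.5% of all genes tested, and none rose, beside 28.4%. The median log2 change of the 8 members was -0.89, and that of all genes tested was 0.0010. At P14, 7 members lay below P1 with no overlap of libraries, beside 32.9% of all genes. In the comparison of P56 with P14, 6 members fell, beside 28.5% of all genes, and 1 rose, beside 27.5%. The median log2 change was -0.60 in the members and -0.02 over all genes, and 4 members lay below P14 with no overlap, beside 29.3% of all genes. Over the whole course, P56 against P1, 7 members fell, beside 31.7% of all genes, none rose, beside 30.9%, and all 8 lay below P1 with no overlap, beside 37.1%. The median log2 change was -1.37 in the members and -0.03 over all genes. A test for any difference among the 3 ages was passed by 7 of 8 members, beside 78.0% of all genes; Ccnd1 missed it at adjusted p = 0.0637.

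Of the 3 D cyclins, Ccnd2 and Ccnd3 fell over the whole course, and Ccnd2 was the one that fell in every comparison. Ccnd2 (ENSMUSG00000000184, chr6:127125162-127152193, minus strand) encodes cyclin D2, which is known for driving cardiomyocyte proliferation when overexpressed in mouse hearts. Its level was 28.8, 27.9 and 31.4 CPM in the P1 libraries, 20.7, 15.5 and 12.5 CPM at P14, and 12.9, 11.1 and 9.31 CPM at P56. The P14 libraries all lay below P1, and the lowest P14 library lay within the range of P56. Ccnd2 thus changed by log2 values of -0.85 ± 0.17 for P14 against P1 (adjusted p = 0.00231), -0.55 ± 0.18 for P56 against P14 (adjusted p = 0.0239) and -1.40 ± 0.18 for P56 against P1 (adjusted p = 7.07e-05). Of its whole log2 change, 60.9% was reached by P14. The P56 against P14 call was lost without replicate 1 of P14 (-0.33, adjusted p = 0.0660), replicate 2 of P56 (adjusted p = 0.0591) or replicate 3 of P56 (-0.44, adjusted p = 0.0877).

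Ccnd3 (ENSMUSG00000034165, chr17:47505051-47599691, plus strand) encodes cyclin D3, known for its role in the expansion of developing lymphocytes and of blood cell precursors. Ccnd3 had 48.7, 46.8 and 45.2 CPM at P1, 45.0, 34.2 and 28.7 CPM at P14, and 22.9, 26.0 and 19.6 CPM at P56. The highest P14 library stood just under the lowest P1 library, and all P56 libraries lay below P14. The log2 change of Ccnd3 was -0.38 ± 0.15 for P14 against P1, which missed the threshold (adjusted p = 0.0546), and -0.66 ± 0.15 for P56 against P14 (adjusted p = 0.00500). P56 against P1 gave -1.04 ± 0.15 (adjusted p = 0.000215), of which 36.8% was reached by P14. Without replicate 1 of P14 the first change was -0.58 (adjusted p = 0.00175), and without replicate 3 of P14 it was -0.24 (adjusted p = 0.155), so that the share reached by P14 also depends on these libraries.

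Ccnd1 (ENSMUSG00000070348, chr7:144929931-144939925, minus strand) encodes cyclin D1, the D cyclin most widely induced by growth factors. It had 3.35, 3.17 and 3.57 CPM at P1, 5.01, 3.08 and 2.79 CPM at P14, and 3.06, 1.77 and 1.47 CPM at P56. The P14 libraries lay on both sides of P1 and 1 P56 library lay among them, while all P56 libraries were under P1, the nearest by a narrow margin. For Ccnd1 the log2 change was 0.11 ± 0.28 for P14 against P1 (adjusted p = 0.758) and -0.79 ± 0.29 for P56 against P14 (adjusted p = 0.0422), and P56 against P1 gave -0.68 ± 0.29, which missed the threshold (adjusted p = 0.0640). The fall at P56 against P14 was no longer past the threshold without replicate 1 of P14, the library with the highest marker score (-0.48, adjusted p = 0.149), replicate 2 of P14 (adjusted p = 0.0535), replicate 2 of P56 (adjusted p = 0.125), replicate 3 of P56 (adjusted p = 0.137) or any single P1 library (adjusted p = 0.0602 to 0.0622). Without replicate 1 of P14 the P14 against P1 value was -0.20 (adjusted p = 0.542). The P56 against P1 fall passed the threshold without replicate 1 of P56 (-1.05, adjusted p = 0.00697), replicate 1 of P14 (adjusted p = 0.0254) or replicate 3 of P14 (adjusted p = 0.0489), and shrank to -0.24 (adjusted p = 0.262) with the marker score as a term.

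Ccnd1 and Ccnd2 followed the marker score within every age: in each, the library with the highest score had the highest level and that with the lowest score the lowest level. Of 15817 genes, 581 (3.67%) were ordered this way in all 3 ages, and 362 (2.29%) were ordered in reverse. The other 6 members were in neither set. With the marker score as a further term in the fit, the D cyclins lay lower at P14 than at P1, by log2 changes of -0.94 ± 0.26 for Ccnd1 (adjusted p = 0.0105), -1.55 ± 0.14 for Ccnd2 (adjusted p = 2.38e-06) and -0.85 ± 0.18 for Ccnd3 (adjusted p = 0.00234). None of the 3 then passed the threshold for P56 against P14, where the values were 0.70 ± 0.35 for Ccnd1, 0.45 ± 0.18 for Ccnd2 and 0.02 ± 0.24 for Ccnd3. Since age is in the same fit, the score term rests on differences between libraries of the same age, 3 per age. The score was higher in every P14 library than in any other. Adjusted comparisons with P14 therefore extend its slope across scores that the libraries of both ages did not share. What part the other cells have in the D cyclin levels was not tested.

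**Figure D2:**
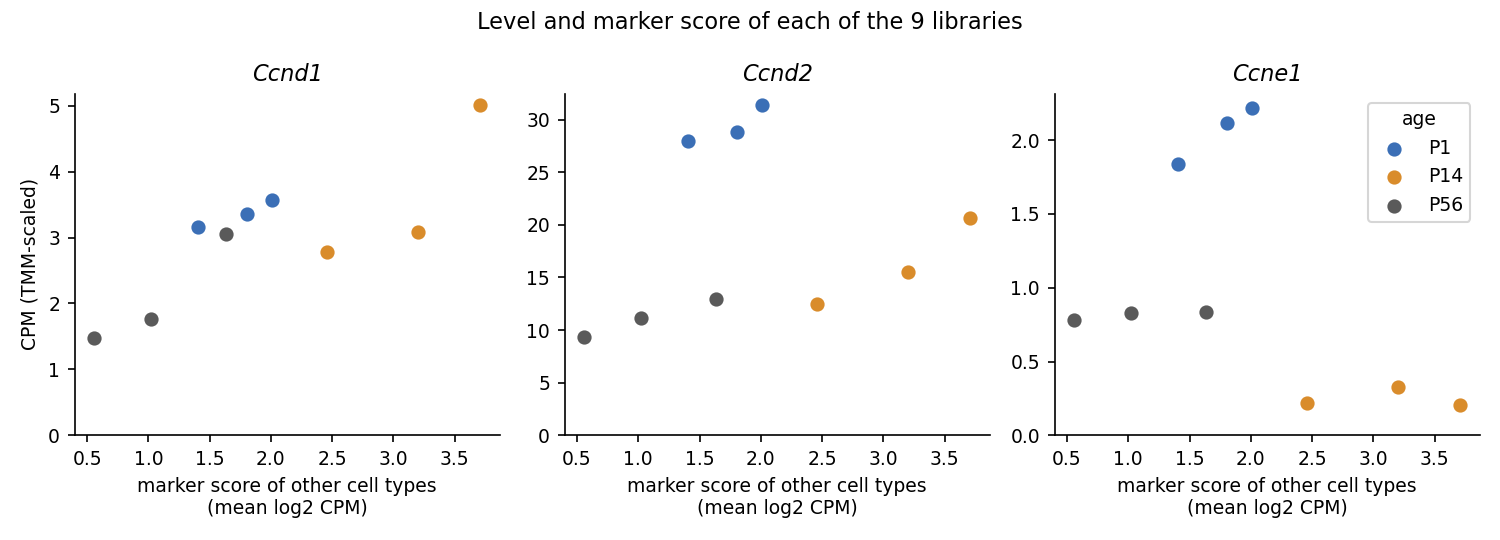
Level of Ccnd1, Ccnd2 and Ccne1 in CPM (vertical axes, linear from 0) against the marker score of other cell types (mean log2 CPM of 47 markers, horizontal axes) for the 9 libraries, coloured by age. Within each age the Ccnd1 and Ccnd2 points climb with the score, and the P14 points of Ccne1 are the lowest of its panel although their scores, 2.46 to 3.71, are the highest.

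The E cyclins were the members with the lowest level at P14, and the change in their course between the intervals was the largest of the 8. Ccne1 (ENSMUSG00000002068, chr7:38097984-38107534, minus strand) encodes cyclin E1, which loads Cdk2 at the entry to S phase and is itself induced by E2F factors. It had 2.12, 1.84 and 2.22 CPM at P1, 0.204, 0.324 and 0.221 CPM at P14, and 0.838, 0.827 and 0.780 CPM at P56. The 3 ages did not overlap, and P14 was the lowest. The counts behind P14 were 8, 12 and 8, a sum of 28 with an exact 95% Poisson interval of 18.6 to 40.5, against 354 at P1 and 108 at P56; the interval covers counting error only. Ccne1 gave a log2 change of -3.03 ± 0.22 for P14 against P1 (adjusted p = 3.68e-06), 1.70 ± 0.23 for P56 against P14 (adjusted p = 0.000248) and -1.33 ± 0.19 for P56 against P1 (adjusted p = 0.000142).

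Ccne2 (ENSMUSG00000028212, chr4:11191351-11204779, plus strand) encodes cyclin E2, the second partner of Cdk2 of this kind, which in mice can stand in for cyclin E1. It had 2.94, 3.34 and 4.02 CPM at P1, 1.20, 1.03 and 1.27 CPM at P14, and 2.22, 1.08 and 1.49 CPM at P56. All P1 libraries stood above both later ages, and the P56 libraries, the most scattered of the 3 ages, overlapped P14. For Ccne2 the log2 change was -1.55 ± 0.25 for P14 against P1 (adjusted p = 0.000623) and -1.10 ± 0.24 for P56 against P1 (adjusted p = 0.00291), and P56 against P14 gave 0.45 ± 0.26, not past the threshold (adjusted p = 0.168). Without replicate 2 of P56 the last value was 0.67 (adjusted p = 0.0419), without replicate 1 of P56 it was 0.14 (adjusted p = 0.628), and with GC offsets it was 0.014 (adjusted p = 0.965).

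In the fit that included the marker score, Ccne1 rose at P56 against P14 (2.02 ± 0.54, adjusted p = 0.0152), and Ccne2 gave 1.02 ± 0.52 (adjusted p = 0.160). Per kilobase of annotated exon, Ccne2 made up 55.8 ± 3.8% of the summed E cyclin level at P1, 78.0 ± 6.3% at P14 and 58.7 ± 8.5% at P56 (SD, n = 3 each). The mean share of Ccne2 was thus the larger at all 3 ages, also with whole-gene length or without a length correction, but at P56 the libraries ran between 49.9 and 66.9%.

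The 3 kinases fell in both intervals with little scatter between libraries, and their steps were unequal. Cdk2 (ENSMUSG00000025358, chr10:128697939-128705031, minus strand) encodes the kinase of the E and A cyclins. It had 16.6, 17.1 and 16.5 CPM at P1, 5.88, 5.65 and 4.99 CPM at P14, and 3.19, 2.57 and 3.50 CPM at P56, with no overlap between ages. Its log2 change was -1.60 ± 0.12 for P14 against P1 (adjusted p = 4.27e-06) and -0.83 ± 0.12 for P56 against P14 (adjusted p = 0.000385). Its P56 level was 5.42-fold lower than at P1 (log2 change -2.44 ± 0.12, adjusted p = 1.50e-07), the largest fall over the whole course among the 8 members, and 65.8% of it on the log2 scale was reached by P14.

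Cdk4 (ENSMUSG00000006728, chr10:127063534-127067920, plus strand) encodes one of the kinases of the D cyclins, and is the gene whose window held 4 E-boxes. Its level was 17.5, 16.0 and 17.4 CPM at P1, 8.38, 9.17 and 9.10 CPM at P14, and 6.30, 6.43 and 6.28 CPM at P56. The ages did not overlap, and the P56 libraries were nearly level with each other. For Cdk4 the log2 change was -0.93 ± 0.08 for P14 against P1 (adjusted p = 1.11e-05), -0.49 ± 0.08 for P56 against P14 (adjusted p = 0.000794) and -1.42 ± 0.08 for P56 against P1 (adjusted p = 3.30e-07).

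Cdk6 (ENSMUSG00000040274, chr5:3341485-3531008, plus strand) encodes the other kinase of the D cyclins, known best from blood cells. It had 243, 248 and 235 CPM at P1, 181, 158 and 149 CPM at P14, and 68.1, 60.2 and 63.0 CPM at P56. The libraries of the 3 ages lay apart, and the larger gap was between P14 and P56. The log2 change was -0.57 ± 0.08 for P14 against P1 (adjusted p = 0.000198) and -1.35 ± 0.08 for P56 against P14 (adjusted p = 1.85e-06). P56 against P1 gave -1.93 ± 0.08 (adjusted p = 4.44e-08), of which 29.9% was reached by P14.

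Once the marker score was included, all 3 kinases remained past the threshold for P14 against P1 (Cdk2 -1.67 ± 0.20, Cdk4 -0.91 ± 0.14, Cdk6 -0.77 ± 0.11). For P56 against P14, Cdk6 remained past it (-1.06 ± 0.14, adjusted p = 0.000329). Cdk2 (-0.73 ± 0.27, adjusted p = 0.0598) and Cdk4 (-0.52 ± 0.19, adjusted p = 0.0626) did not.

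**Figure D3:**
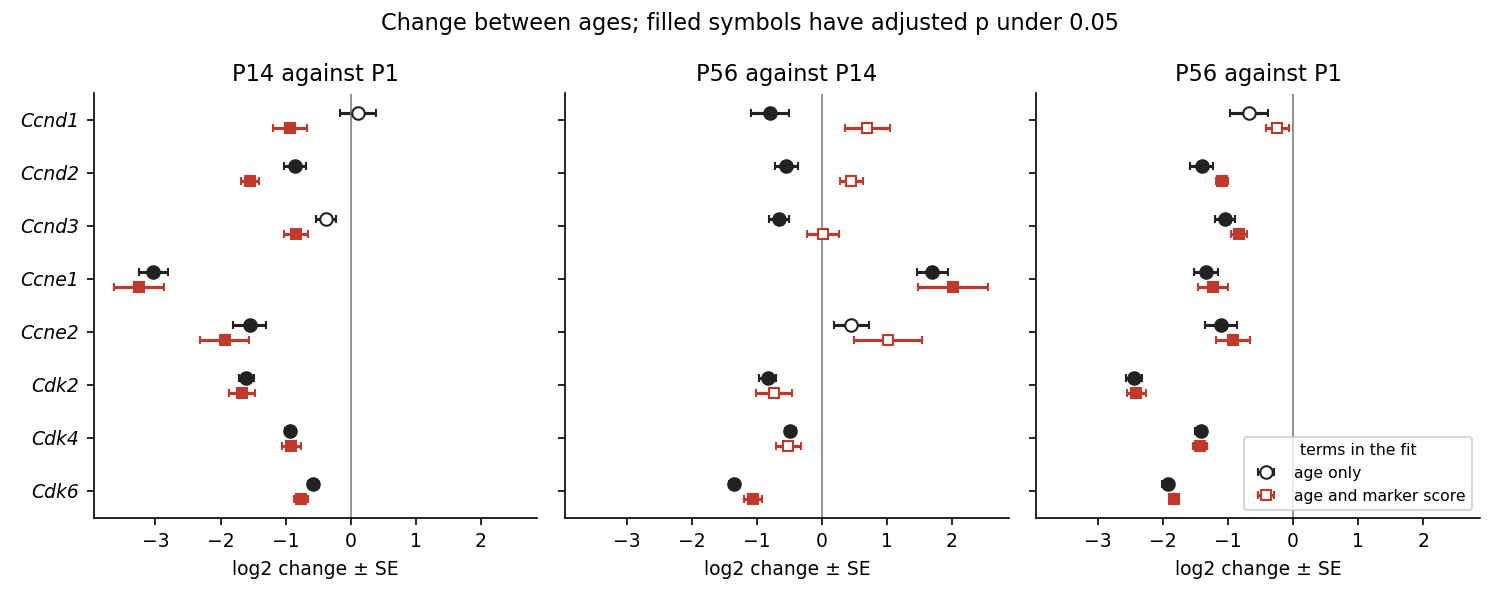
Log2 change ± SE of each gene (horizontal axes) for P14 against P1, P56 against P14 and P56 against P1, from the fit with age alone (black circles) and from the fit with age and the marker score (red squares); filled symbols have adjusted p under 0.05. Ccne1 stands to the right of 0 for P56 against P14 in both fits, while the 3 D cyclins move across 0 there when the score is included.

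The difference between the intervals, the log2 change of P56 against P14 minus that of P14 against P1, separated the kinases of the D cyclins from each other. It was past the threshold and positive in 4 members, beside 24.1% of all genes, and negative in 1, beside 26.0%. The positive ones were Ccne1 (4.73 ± 0.42, adjusted p = 3.48e-05), Ccne2 (2.01 ± 0.46, adjusted p = 0.00549), Cdk2 (0.77 ± 0.21, adjusted p = 0.0134) and Cdk4 (0.45 ± 0.14, adjusted p = 0.0253). In Ccne1 the direction turned, and in Cdk2 and Cdk4 the later step down was the smaller one, in log2 units per interval. Cdk6 was the negative one (-0.78 ± 0.13, adjusted p = 0.00115), with the larger step after P14. The D cyclins did not pass (Ccnd1 -0.90, Ccnd2 0.31, Ccnd3 -0.27), though Ccnd1 did without replicate 1 of P56 (-1.28, adjusted p = 0.0261). Ccnd2 passed without replicate 1 of P14 (0.73, adjusted p = 0.0354) and with the marker score as a further term (2.00, adjusted p = 0.00062). The intervals last 13 and 42 days; per day, the log2 fall of Cdk6 was -0.044 in the first and -0.032 in the second. Once the marker score was a term, the differences of Cdk2 (adjusted p = 0.137), Cdk4 (adjusted p = 0.377) and Cdk6 (-0.29, adjusted p = 0.376) no longer passed. That of Cdk4 was also lost without replicate 1 of P1 (adjusted p = 0.0612), replicate 3 of P1 (adjusted p = 0.0567) or replicate 1 of P14 (adjusted p = 0.0792), and that of Cdk2 without replicate 3 of P14 (adjusted p = 0.0505).

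Between genes, levels were compared as CPM per kilobase of annotated exon. By this measure Cdk6 was highest at every age, with 17.3 ± 0.47 at P1, 11.6 ± 1.2 at P14 and 4.56 ± 0.29 at P56 (SD, n = 3 each). Ccnd3 followed with 5.34 ± 0.20, 4.10 ± 0.94 and 2.60 ± 0.36, then Cdk4 with 5.22 ± 0.25, 2.73 ± 0.13 and 1.95 ± 0.025, and Ccnd2 with 3.12 ± 0.19, 1.73 ± 0.44 and 1.18 ± 0.19. Libraries of Ccnd3 and Cdk4 overlapped at P1 and not later, and those of Cdk4 and Ccnd2 lay apart at all 3 ages. This order holds for exon length. Per kilobase of the longest transcript, Ccnd3 (5.92) stood above Cdk6 (5.53) at P56, and per kilobase of the whole gene, an alternative added after the data were seen, Cdk4 was highest at every age, with 3.87 at P1, 2.03 at P14 and 1.44 at P56, against 1.28, 0.858 and 0.336 for Cdk6.

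The lower ranks changed with age. At P1, Cdk2 (2.69 ± 0.054) stood above Ccne2 (0.98 ± 0.16), Ccne1 (0.77 ± 0.074) and Ccnd1 (0.71 ± 0.043), the last pair overlapping. At P14, Cdk2 (0.89 ± 0.074) and Ccnd1 (0.77 ± 0.26) overlapped, Ccne2 (0.33 ± 0.036) lay below them, and Ccne1 (0.094 ± 0.024) was lowest. At P56, Cdk2 (0.50 ± 0.076), Ccne2 (0.46 ± 0.17), Ccnd1 (0.45 ± 0.18) and Ccne1 (0.31 ± 0.012) each overlapped the next.

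The makeup of each kind depended on the length used, because exons take up 7.38% of the Cdk6 gene and 9.27% of Ccnd3 but 74.1% of Cdk4 and 87.7% of Cdk2, and the feature counted, exon or whole gene, was not given in the sources used here. Per kilobase of exon, Ccnd3 held 58.2 ± 2.2%, 62.3 ± 1.1% and 61.7 ± 4.8% of the summed D cyclin level at P1, P14 and P56 (SD, n = 3 each). Per kilobase of the whole gene, Ccnd2 came first, with 56.6 ± 1.4%, 44.8 ± 1.2% and 47.8 ± 1.4%. By both lengths the Ccnd2 share was lower in every P14 library than in any P1 library, as was that of Cdk2 among the kinases.

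Among the kinases, Cdk6 held 68.6 ± 1.0%, 76.2 ± 2.1% and 65.0 ± 1.3% per kilobase of exon at the 3 ages. Per kilobase of the whole gene Cdk4 came first, with 51.5 ± 1.7%, 55.4 ± 3.3% and 65.2 ± 2.7%. By either length the Cdk6 share was highest at P14 and the Cdk4 share highest at P56.

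**Figure D4:**
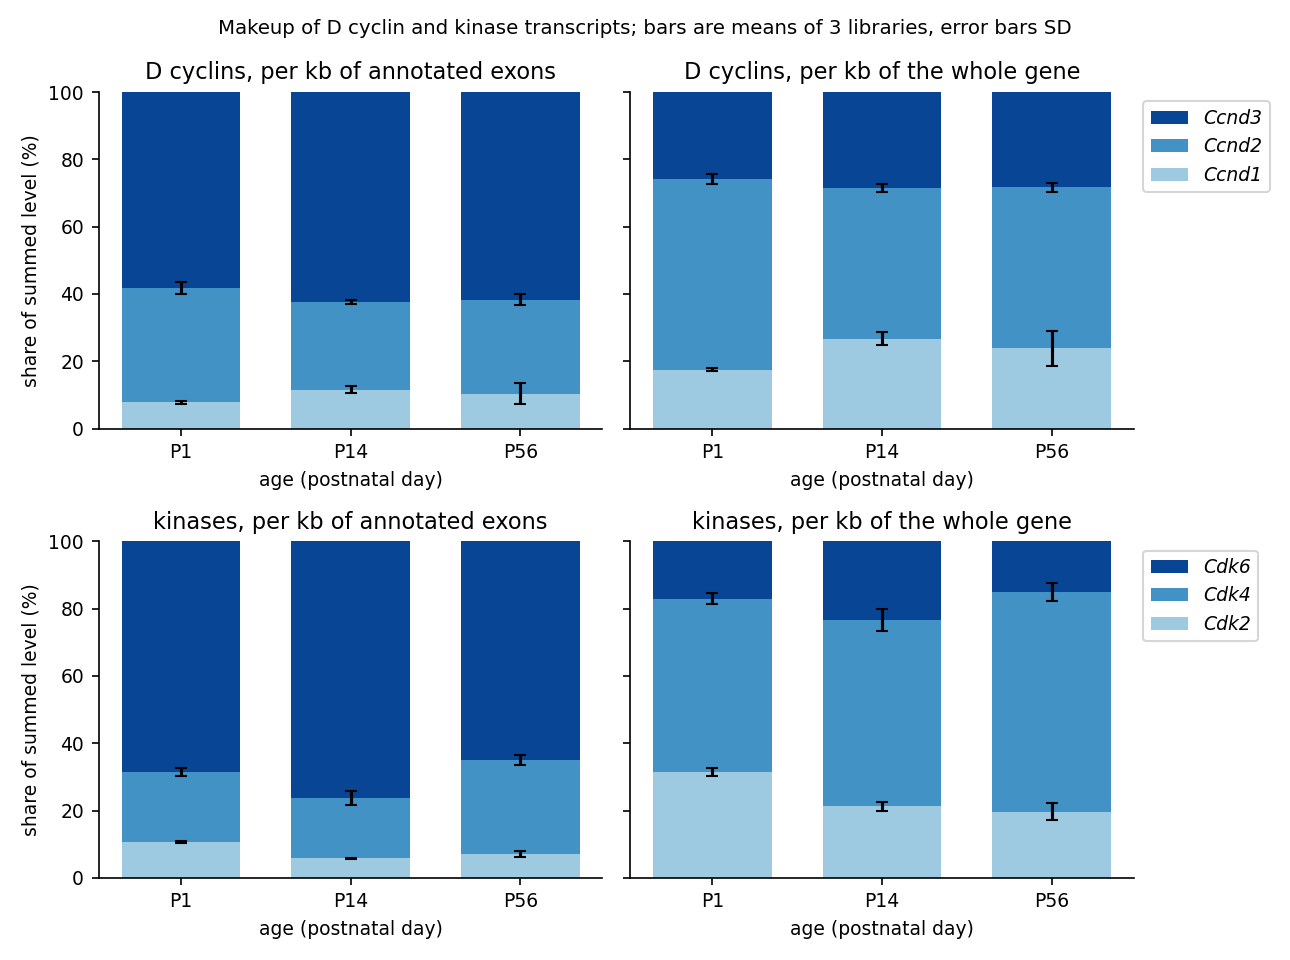
Share of each gene in the summed level of the D cyclins (top) and of the 3 kinases (bottom) at each age, in percent, with levels taken per kilobase of annotated exons (left) or of the whole gene (right); bars are means of 3 libraries, and error bars (SD) belong to the boundary of the lowest gene and to the gene stacked on it. Ccnd3 and Cdk6 take the largest shares on the left, and Ccnd2 and Cdk4 on the right.

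Several members share sequence with a gene on the opposite strand, whose reads cannot be told apart without strand. Ccnd1 overlaps Oraov1 (LTO1 in the annotation) by 1100 exon bases; Oraov1 had 7.85, 8.03 and 4.90 CPM on average at P1, P14 and P56, and its log2 change for P56 against P14 was -0.71, beside -0.79 for Ccnd1. Cdk4 overlaps Tspan31 by 641 exon bases, and Tspan31 had 5.28, 4.58 and 5.21 CPM, with no steady fall. Ccnd3 overlaps Bysl by 361 exon bases (8.22, 7.96 and 7.83 CPM), Ccne2 overlaps Ints8 by 609 (72.1, 61.5 and 67.6 CPM), and Ccnd2 overlaps the antisense gene 9330179D12Rik by 368 (20.3, 20.7 and 28.6 CPM). With introns included, Ints8 overlaps 5622 of the 13429 bases of the Ccne2 gene, which matters if whole genes were counted. Ccnd2 also overlaps the antisense gene Gm43126 by 372 exon bases, Cdk2 overlaps Pmel, and Cdk6 the antisense genes Gm17590 and Gm42435, none of which is used here. Ccne1 overlaps no annotated gene. A pseudogene of Ccnd3, Ccnd3-ps, had 0.301, 0.277 and 0.135 CPM.

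Around the 8 members, lists of pathway genes were followed from the regulators to the targets. Their counts are to be read beside the shares over all genes tested. Of all genes, 28.4% rose and 27.5% fell at P14 against P1, and 27.5% rose and 28.5% fell at P56 against P14. At P56 against P1, 30.9% rose and 31.7% fell. Of the CDK inhibitors, 5 of 7 were measured. At P14 against P1, Cdkn1a, which encodes p21, an inhibitor of Cdk2 complexes, rose and 3 fell. Cdkn1a had 17.1 ± 2.0 CPM at P14 against 4.10 ± 0.24 CPM at P1 (log2 change 2.06 ± 0.17, adjusted p = 8.21e-06), and 1.42 ± 0.41 CPM at P56 (log2 change against P14 -3.59 ± 0.19, adjusted p = 1.00e-06). Its level was thus highest at the age at which Ccne1 was lowest, an age that also had the highest marker scores. Cdkn2c, an INK4 inhibitor of Cdk4 and Cdk6, had 1.73 ± 0.41 CPM at P14 against 4.38 ± 0.73 CPM at P1 (log2 change -1.33 ± 0.26, adjusted p = 0.00169). Cdkn2d (-0.81) and Cdkn1b (-0.26), which encodes p27, were the others that fell. At P56 against P14, none rose and 3 of 5 fell (Cdkn1a, Cdkn1c -2.23, Cdkn1b -0.27), and at P56 against P1 all 5 measured inhibitors fell, with a median log2 change of -1.53.

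Of the pocket proteins and E2F factors, the substrates and the effectors of the kinases, 13 of 13 were measured; 2 rose and 6 fell at P14 against P1, and 3 rose and 5 fell at P56 against P14. Rbl1, which encodes p107, had 3.10 ± 1.2 CPM at P14 against 23.0 ± 1.3 CPM at P1 (log2 change -2.88 ± 0.25) and fell again at P56 against P14 (-2.13 ± 0.29). E2f1 (-2.83 ± 0.35) and E2f8 (-2.53 ± 0.20) also fell at P14. Rbl2, which encodes p130, the pocket protein of resting cells, rose at P56 against P14 (0.53 ± 0.08), as did Rb1 (0.28 ± 0.09). Tfdp2, a dimer partner of E2F, rose in both steps (1.38 ± 0.08 and 0.51 ± 0.07).

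The S phase genes under E2F control moved one way in the first step. Of the list, 17 of 18 were measured and all 17 fell at P14 against P1, with a median log2 change of -2.10, beside 0.0010 over all genes. The largest falls were those of Rrm2 (-3.09 ± 0.32), which encodes a subunit of ribonucleotide reductase, the thymidine kinase Tk1 (-2.82 ± 0.26) and Mcm5 (-2.77 ± 0.18), a subunit of the replicative helicase. At P56 against P14, 12 of the 17 fell, among them Mcm5 again (-2.04 ± 0.22). Of the cyclins and kinases of S, G2 and M phase, a list that also holds Cdc25 phosphatases, 9 of 10 genes were measured. All 9 fell at P14 against P1, with a median log2 change of -1.92. Cdk1, the mitotic kinase, fell in both steps (-2.58 ± 0.28 and -3.11 ± 0.38). At P56 against P14, 8 fell and Wee1, an inhibitory kinase of Cdk1, rose (0.63 ± 0.09). The turn of Ccne1 at P56 stood beside further falls of Ccna2 (-2.42 ± 0.33) and Ccnf (-2.07 ± 0.31).

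Genes that activate or fold the kinases numbered 6, all measured. Cdk7 and Ccnh, parts of the kinase that activates the others, fell at P14 against P1 (-0.66 ± 0.05 and -0.30 ± 0.10) and rose at P56 against P14 (0.35 ± 0.05 and 0.69 ± 0.10), and Mnat1, the third part, rose at P56 (0.27 ± 0.05). At P14, 1 of the 6 rose and 4 fell, the largest fall being that of the chaperone Hsp90aa1 (-1.19 ± 0.28), whose helper Cdc37 was the riser (0.36 ± 0.10). At P56 against P14, 3 rose and none fell.

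Of 14 genes of G1 cyclin turnover, all measured, 3 rose and 6 fell at P14 against P1, and 8 rose and 3 fell at P56 against P14. Fbxo31, an F-box protein known for degrading cyclin D1, had 85.1 ± 21 CPM at P14 against 16.3 ± 0.26 CPM at P1 (log2 change 2.39 ± 0.16) and fell at P56 against P14 (-0.54 ± 0.15). Fbxw7, the F-box protein that targets cyclin E, rose in both steps (0.59 ± 0.05 and 0.26 ± 0.05). Skp2, which targets p27, fell in both (-2.02 ± 0.19 and -1.50 ± 0.21), and Usp2, a deubiquitinase known to act on cyclin D1, rose in both (0.87 ± 0.13 and 0.46 ± 0.13).

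Of 16 transcription factors known to act on D cyclin genes, 15 were measured; 4 rose and 5 fell at P14 against P1, and 1 rose and 7 fell at P56 against P14. Stat5a rose most at P14 (1.47 ± 0.11), and Foxm1 fell most in both steps (-2.18 ± 0.23 and -2.85 ± 0.32). Of the E-box factors, Mycn fell at P14 against P1 (-1.11 ± 0.40) and at P56 against P14 (-2.43 ± 0.51). Myc had 2.08 ± 0.34 CPM at P14 against 2.44 ± 0.07 CPM at P1 (log2 change -0.24 ± 0.26, adjusted p = 0.471) and 0.415 ± 0.23 CPM at P56 (log2 change against P14 -2.32 ± 0.31). Yap1 was the factor that rose at P56 against P14 (0.54 ± 0.06).

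**Figure D5:**
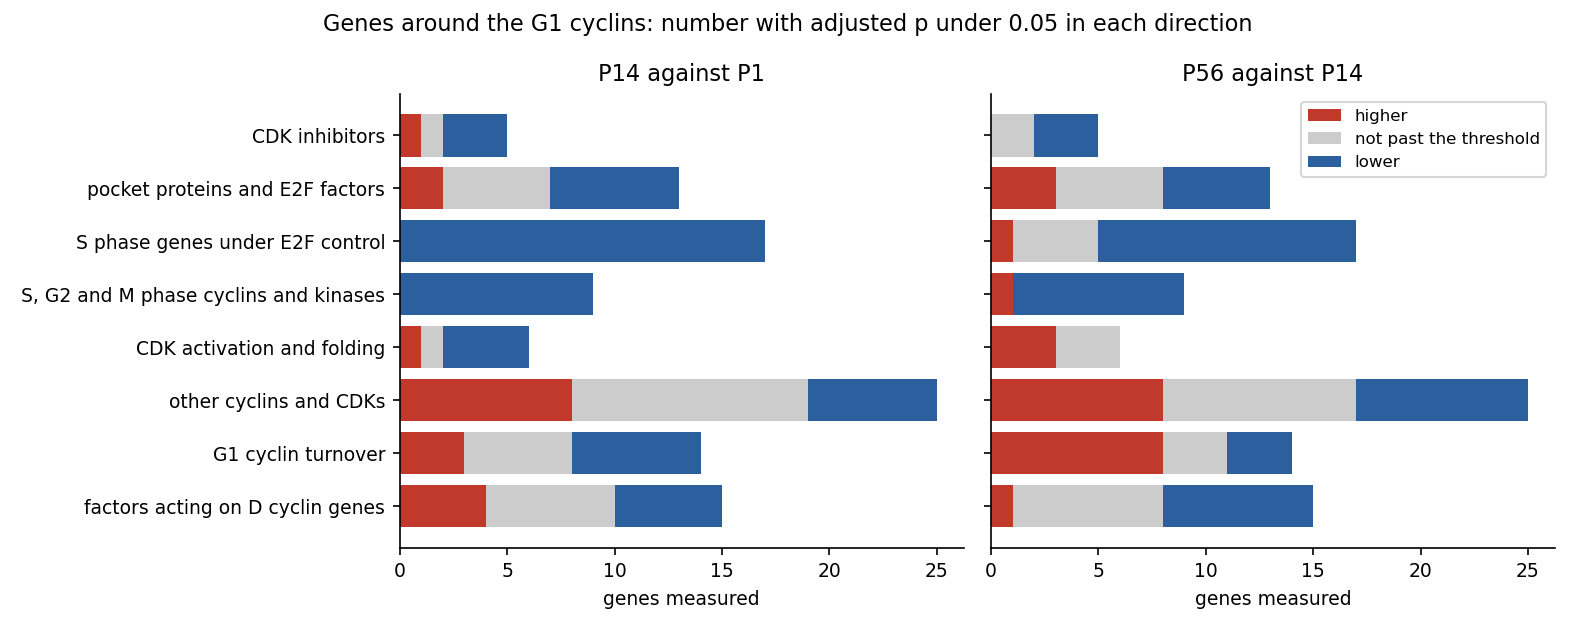
Number of measured genes (horizontal axes) in each of 8 lists around the G1 cyclins that were higher, not past the threshold, or lower at P14 against P1 (left) and at P56 against P14 (right). All 17 S phase genes under E2F control and all 9 genes in the list of S, G2 and M phase cyclins and kinases were lower at P14. The lists of kinase activation and of cyclin turnover have more genes higher than lower at P56.

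Members and other genes were also compared by the shape of their course, as the root mean square difference of log2 CPM, each centred on its own mean, over the 9 libraries; a value of 0 means the same course. Among the members the closest pairs were Ccnd2 with Ccnd3 and Ccnd2 with Cdk4, both at 0.233, and the farthest was Ccnd1 with Ccne1, at 1.33. Ccne1 was at least 0.686 from every other member, its nearest being Ccne2. Among all genes with a mean of at least 5 CPM, Cdk4 had the nearest neighbour of any member, Myh10 at 0.044. For the others the nearest gene was Sema5a for Ccnd1 (0.141), B3galt1 for Ccnd2 (0.074), Apaf1 for Ccnd3 (0.079), Nr6a1os for Ccne2 (0.208), Scd2 for Cdk2 (0.124) and Zfp467 for Cdk6 (0.102). The nearest to Ccne1 was Dapp1, at 0.234, the widest gap among the 8. Ccne1, Ccne2 and Ccnd1, which had the widest gaps, had mean levels under 5 CPM at every age, below the limit set for the searched genes. What part counting error has in these gaps was not tested.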

How the data were processed

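The authors deposited 1 table of raw counts per gene for 9 libraries, with 15824 genes, and all columns were used. The submitters' processing notes name mouse build GRCm38 with featureCounts 1.4.2, STAR 2.4.0g1 and bcl2fastq 2.17.1.14; the counted feature and the strand setting are not given in the sources used here. The smallest mean count of a gene was 10, so weakly counted genes had been removed before deposit.

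Counts were analysed with edgeR 4.0.16 (limma 3.58.1, R 4.3.3): filterByExpr removed 7 genes, libraries were scaled by TMM, and 1 quasi-likelihood fit with age as the only term held all 9 libraries, with Benjamini-Hochberg adjustment over 15817 genes. The common dispersion was 0.0192. The code was tested on simulated data. Coordinates and exon lengths came from the GENCODE M21 annotation of GRCm38, in which 15758 genes had a GC content, and promoters from RefSeq. Same-age libraries differed beyond counting error.

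The members and gene lists were chosen with earlier results of these data known. All 8 members were named; from each list, up to 3 genes in a direction were eligible, those past the threshold that changed most, provided that the higher of both ages reached 1 CPM. One gene that the rule selects is not reported here. Named outside this rule, after their values were seen, were Ccnh and Myc at P14 against P1 and Mycn and Fbxw7 at P56 against P14. Alternatives were DESeq2 1.42.0 and its size factors, no filter, the compared ages alone, a replicate block, leaving out each library, the marker score, GC offsets and other lengths.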

Additional observations from a re-analysis of the deposited data

How the results depend on the processing

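Each comparison of ages was recomputed under 16 alternatives, and the difference between intervals and the test for any difference under 15. The count of members past the threshold stayed at 6 to 8 of 8 for P14 against P1 (6 to 7 without any 1 library) and at 7 to 8 for P56 against P1. Over all genes, those past the threshold in either direction numbered 7533 to 9239 for P14 against P1 and 8752 to 10556 for P56 against P1. With the marker score as a term, genes past the threshold for P56 against P14 numbered 4747 in place of 8860, and members 2 in place of 7. For the difference between intervals genes then numbered 5095 in place of 7916, and members 3 in place of 5, with Ccnd2 among the 3. The cause was not tested. Without any 1 library, members numbered 5 to 7 for P56 against P14 and 4 to 6 for the difference between intervals. Directions turned only in D cyclins. For P14 against P1, Ccnd1 turned to -0.20 without P14 replicate 1 (0.27 without P14 replicate 3, the other end of its range without any 1 library) and to -0.94 with the marker score. For P56 against P14, the marker score gave 0.70 for Ccnd1, 0.45 for Ccnd2 and 0.018 for Ccnd3. The difference between intervals turned to 1.63 for Ccnd1 (marker score), to -0.011 for Ccnd2 without P14 replicate 3 (range without any 1 library -0.011 to 0.73), and for Ccnd3 to 0.11 without P14 replicate 1 (range -0.55 to 0.11), 0.86 with the marker score and 0.20 with GC offsets. With the marker score, where the direction turned, the P56 against P14 calls of all 3 D cyclins were lost. With the direction kept, the call of Ccnd1 was lost in a further 9 alternatives and that of Ccnd2 in a further 4. For Ccnd2 these were the 2 ages alone (adjusted p = 0.0565) and the fits without P14 replicate 1 (0.0660), P56 replicate 2 (0.0591) or P56 replicate 3 (0.0877). GC offsets also ended the call of Ccnd3 (-0.39, adjusted p = 0.115). Ccnd3 passed for P14 against P1 in 5 alternatives. Correlations of the deviations of same-numbered libraries ran between -0.219 and 0.493. Between P14 and P56 they were 0.493 for replicate 1, 0.0077 for replicate 2 and 0.364 for replicate 3. Differently numbered pairs of these ages ran between -0.479 and 0.222. Whether equal numbers mark anything shared was not tested. With the replicate block, members past the threshold numbered 7 for P14 against P1, 7 for P56 against P14, 8 for P56 against P1 and 5 for the difference between intervals; Ccnd3 passed for P14 against P1 (-0.40, adjusted p = 0.0175) and Ccnd1 for P56 against P1 (-0.74, adjusted p = 0.0150). With the longest transcript in place of all exons, 21 of 24 levels per kilobase moved beyond the replicate SD, Cdk6, Ccnd3 and Cdk4 stayed the 3 highest, but Ccnd3 stood above Cdk6 at P56, and Cdk2 above Ccnd2 at P1. With whole-gene length Cdk4 and Cdk2 were the highest at P1 (3.87 and 2.36), above Cdk6 (1.28), Ccnd2 (1.09) and Ccnd3 (0.495). Ccne1 at P14, at 8 to 12 counts per library, is the value most limited by depth.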

Other observations

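Cyclins and kinases that act outside the G1 to S passage moved in both directions. Of 26 such genes 25 were measured. At P14 against P1, 8 rose and 6 fell, beside 28.4% and 27.5% of all genes, with a median log2 change of 0.03. At P56 against P14, 8 rose and 8 fell, beside 27.5% and 28.5% of all genes, with a median of -0.02. Both directions were thus near the shares over all genes. At P14 against P1 the risers included Cdk18 (0.97 ± 0.19) and Cdk8 (0.55 ± 0.11), a kinase of the Mediator complex, and Ccni fell (-0.57 ± 0.09). At P56 against P14, Ccng1, a target of p53, rose (0.83 ± 0.07), as did Cdk19 (0.57 ± 0.05) and Cdk13 (0.43 ± 0.07), a kinase of RNA polymerase II. Ccnjl had 16.6 ± 1.4 CPM at P56 against 55.3 ± 3.2 CPM at P14 (log2 change -1.74 ± 0.09), and Ccng2 fell too (-1.47 ± 0.24).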
